A study of Mus musculus with 3 samples.

Results

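Low-cycle pro-B cells are the cells of a sorted mouse pro-B library that carried few transcripts of genes used in DNA replication and mitosis. They were chosen from the cells' own counts. For each cell with 500 or more detected genes and at most 10% mitochondrially encoded transcripts, the UMIs (unique molecular identifiers, tags that each mark a captured transcript) of 18 S phase genes and of 14 G2 and M phase genes were expressed per 10000 UMIs of that cell. Cells with under 15 on each scale were taken. This gave 410 of the 1106 kept pro-B cells, and 2633 cells were kept over all libraries. The share was 37.1% (95% exact Clopper-Pearson interval 34.2 to 40.0%). The other pro-B cells fell into 506 with a G2M value of 15 or more, called G2M-list cells here, and 190 with an S value of 15 or more and a G2M value under 15, called S-list cells. The same rule took 704 of 948 common lymphoid progenitors (CLP, 74.3%) and 449 of 579 lymphoid-primed multipotent progenitors (LMPP, 77.5%).

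C57BL/6J mouse bone marrow was sorted by surface proteins, and the cells were run in droplets with the Single Cell 3' v2 chemistry. Pro-B cells were gated as cKit+ Sca1- Flt3- IL7Ra+ B220+, CLP as cKit+ Sca1+ Flt3+/- IL7Ra+ B220-, and LMPP as cKit+ Sca1+ Flt3+ IL7Ra- B220-. Each population is 1 library, with no number of mice, age or sex given, so no difference has a replicate check, no test was made, and population and droplet run cannot be told apart. The labels also describe cultured iLS progenitors, and those cells and immunoglobulin genes were not analysed here.

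Pro-B cells assemble the immunoglobulin heavy chain gene by V(D)J recombination, in which the Rag1-Rag2 recombinase cuts the DNA, terminal transferase (Dntt) adds bases at the joints, and the end-joining machinery seals them. Rag2 protein is destroyed when cells enter S phase, which keeps cutting in G1, and pro-B cells alternate between proliferation driven by the IL-7 receptor and pauses in which recombination takes place. A rearranged heavy chain then pairs with the surrogate light chain (Vpreb1 or Vpreb2 with Igll1) to form the pre-B cell receptor.

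The low-cycle cells were shallow. They held 1323212 UMIs in all, with a median of 2989.5 UMIs and 1334.5 genes per cell, against 6043944 UMIs in all and medians of 8156 UMIs and 2460 genes in the other pro-B cells. Median depths were 7017 UMIs in S-list cells, 8572 in G2M-list cells, 6006 in low-cycle CLP and 6441 in low-cycle LMPP. Mitochondrial transcripts took a median of 2.32% of UMIs in low-cycle cells, 2.10% in S-list cells and 1.98% in G2M-list cells, and ribosomal protein genes took 28.1% in low-cycle cells and 28.3% in the other pro-B cells. A doublet caller (scrublet) marked 0 of the low-cycle cells and 2 pro-B cells in all. The pro-B and CLP libraries shared 2 barcode sequences, 1 of them in a low-cycle cell, and no low-cycle barcode recurred in LMPP. Depth and the rule moved together, so levels are given as CPM (UMIs summed over a group of cells, per 1000000 UMIs of that group) and, for part of the genes, also as UMIs per cell or at matched depth. All intervals are 95% intervals and cover counting error only.

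**Figure D1:**
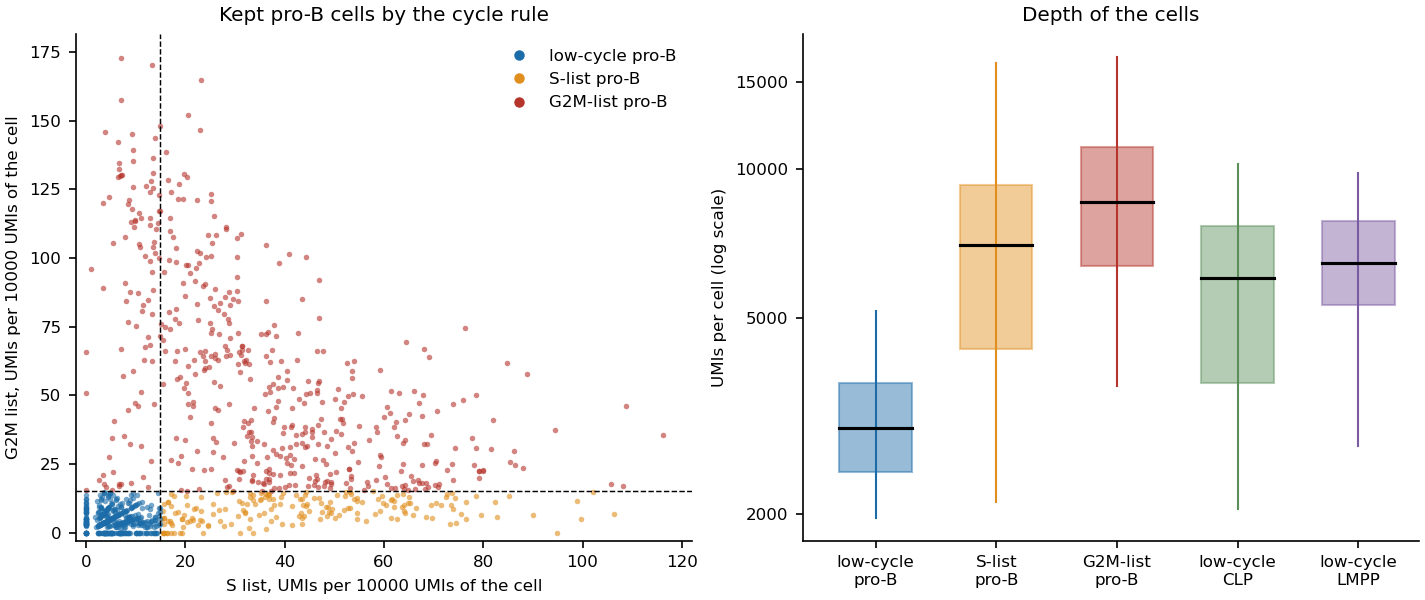
Left, each point is a kept pro-B cell by its S list and G2M list UMIs per 10000 UMIs, with dashed lines at the limit of 15. The 410 low-cycle cells lie in the lower left corner. Right, UMIs per cell on a log scale, with the box from the 25th to the 75th percentile, the black line at the median and the thin line from the 5th to the 95th percentile. The low-cycle pro-B median of 2989.5 UMIs lies under that of the other 4 sets.

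The limits do not cut at a gap. In the 49 low-cycle cells whose higher value lay between 12.5 and 15, Rag1 stood at 158 CPM, Dntt at 2196, Vpreb3 at 5381 and Hmgb2 at 798 CPM. In the 26 cells just outside, between 15 and 17.5, the same genes stood at 171, 1941, 5785 and 1086 CPM, with median depths of 2900 and 2561.5 UMIs inside and outside. Among low-cycle cells the median S value was 5.33 and the median G2M value 4.18, and 11 of the 410 had no UMI of any gene of the rule. Low-cycle CLP and LMPP cells had a median G2M value of 0, and 67 of 704 and 36 of 449 had no such UMI.

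The 3 genes given as markers of these cells were present. Rag1 stood at 212 CPM in low-cycle cells (188 to 238), 52.8 in S-list cells and 39.5 in G2M-list cells. Dntt stood at 2107, 1262 and 1167 CPM, and Vpreb3, a chaperone-like partner in pre-B receptor assembly, at 5807, 2517 and 2836 CPM. After each cell was thinned to 2000 UMIs, Vpreb3 was detected in 99.5% of low-cycle cells and in 98.7% of other pro-B cells, and Dntt in 95.3% and 80.5%. Rag1 was detected in 33.6% of low-cycle cells (28.9 to 38.6%, 384 cells) and 8.31% of other pro-B cells (6.35 to 10.6%, 686 cells), and in 1 of 443 low-cycle LMPP cells (0.226%). In low-cycle LMPP cells Vpreb3 was detected in 0.226% and Dntt in 39.1%. Of the 3 markers the share of cells with Rag1 differed most between the sets of pro-B cells. Cd34, a surface protein of earlier progenitors, had no UMI in any pro-B cell, which allows a share of up to 0.781% of 384 thinned low-cycle cells with a UMI at this depth, and sets no limit on cells that express the gene at a low level.

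The comparison of low-cycle with other pro-B cells asks which genes go with the low level of cycle transcripts. Genes of V(D)J recombination, the surrogate light chain and several B lineage regulators took a larger share of UMIs in low-cycle cells, and genes of chromatin packing, tubulin and the nucleolus took a smaller one. With the rule's own genes left out, 3071 genes reached 50 CPM in a group. Of them 787 were higher by 1.5-fold or more (25.6%) and 633 lower by as much (20.6%), and the median log2 ratio was 0.09. With median-of-ratios scaling, 49.4% of calls were higher, in the depth window described next 40.7%, and with total scaling over all cells 55.4%. Of the 10520 genes with 10 or more UMIs over both groups, the rule's genes included, 31.2% were at least 1.5-fold higher and 19.6% lower, and lists are counted below by that measure. The contrast is the one the rule made, on the same cells, so these counts describe the split and nothing is read from them beyond that.

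Because low-cycle cells were shallow, the ratios were recomputed in cells of 2500 to 6000 UMIs (280 low-cycle and 156 other pro-B cells, with median depths of 3301.5 and 4873.5 UMIs), a window set after the values were known. In that window 464 genes were higher (14.8% of 3133) and 677 lower (21.6%), with a median log2 ratio of -0.06. Of the 787 genes higher at all depths, 418 were also called in the window, and of the 633 lower genes 497 were. By the measure used for lists, 1775 of 3286 higher genes and 1564 of 2059 lower genes stayed past 1.5-fold. The counts of list genes that stayed, given below, are to be read beside these. Depth still differed between the sets in the window, and its part in the differences was not tested.

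Most recombinase and end-joining genes were higher in low-cycle cells, and none was lower by 1.5-fold. Of 13 listed genes 12 were in the files and 11 had 10 or more UMIs. Past 1.5-fold lay 9 on the higher and 0 on the lower side, with a median log2 ratio of 1.27, against 0.19 for all genes counted this way. In the depth window 10 of the genes had 10 or more UMIs, with 6 higher, 0 lower and a median of 0.70. Of the 9, 7 stayed past 1.5-fold, among them Dclre1c on only 6 and 2 UMIs. The others were Nhej1 (12.8 and 6.95 CPM, log2 0.89 and 0.55 in the window), an end-joining cofactor, and Poll, a gap-filling polymerase (15.9 and 10.3 CPM, log2 0.63 and -0.19 in the window).

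Rag1 was 4.96-fold higher (log2 2.31, 2.06 to 2.56), with 212 CPM in low-cycle cells and 42.7 CPM in other pro-B cells. Rag2 was 3.17-fold higher, with 181 CPM in low-cycle cells and 56.9 CPM in other pro-B cells. Per cell, Rag1 had 0.683 UMIs in low-cycle cells and 0.371 in other pro-B cells, and Rag2 0.583 and 0.494. So Rag1 was also higher per cell, whereas the per-cell log2 ratio of Rag2 was 0.24 (-0.01 to 0.48). Within the depth window the folds were 2.63 for Rag1 (log2 1.39, 0.95 to 1.86) and 1.63 for Rag2 (log2 0.71, 0.30 to 1.12).

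Xrcc6, which encodes the Ku70 subunit that binds broken DNA ends, stood at 682 CPM in low-cycle cells and 164 CPM in other pro-B cells (log2 2.06, 1.92 to 2.19), and at 1.27 in the window. Its partner Xrcc5 (Ku80) was listed at only 9.07 and 12.2 CPM and was not 1.5-fold different. Lig4, the ligase that closes the joints, stood at 62.7 and 19.4 CPM (log2 1.70, 1.27 to 2.11, and 1.38 in the window), and its cofactor Xrcc4 at 32.5 and 12.9 CPM. The window interval of Xrcc4 (log2 0.81, -0.17 to 1.86) included 0. Dntt was 1.77-fold higher by CPM but lower per cell, with 6.80 UMIs in low-cycle cells and 10.3 in other pro-B cells. Prkdc (7.56 and 5.79 CPM), the kinase of the end-joining complex, differed by less than 1.5-fold, and Dclre1c (7.56 and 3.14 CPM), the Artemis nuclease that opens hairpin ends, rested on 10 UMIs in low-cycle cells (log2 1.27, -0.00 to 2.44).

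The promoter of Rag1 is shown because this gene separated the sets most among the markers. It lies on chr2:101649483-101649782 of GRCm38.p6, minus strand, in the RefSeq window of 250 bases before to 50 bases after the annotated start, and capitals mark the E-box CANCTG, the letters that E2A proteins (Tcf3) can bind, read on both strands.
Rag1: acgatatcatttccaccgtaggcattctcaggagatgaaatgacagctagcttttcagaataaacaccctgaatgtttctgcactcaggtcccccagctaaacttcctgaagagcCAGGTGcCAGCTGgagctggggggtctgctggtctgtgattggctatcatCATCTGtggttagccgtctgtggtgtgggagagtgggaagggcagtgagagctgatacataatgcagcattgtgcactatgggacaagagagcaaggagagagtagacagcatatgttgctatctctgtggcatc
The 3 matches begin at -135, -128 and -85, counted with 0 at the annotated start. CANCTG occurs in 51.4% of 32851 promoters of this length and in 6 of the 12 promoters matched for the list, so a match is common.

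At matched depth of 2000 UMIs, Rag1 and Rag2 were detected together in 13.0% of low-cycle cells (9.82 to 16.8%) and in 1.46% of other pro-B cells (0.701 to 2.66%). The product of the single shares was 10.3% in low-cycle cells and 1.11% in other pro-B cells, and both products lay within the interval of the joint share. Rag1 with Xrcc6 was detected in 24.5% of low-cycle cells, with a product of 22.0%, and Rag1 with Btg2 in 19.5%, with a product of 17.5%. Rag1 with Lig4 was found in 2.86% of low-cycle cells (1.44 to 5.07%), with a product of 3.85%. In low-cycle cells the product lay within the interval of the joint share for all 13 pairs computed. In other pro-B cells it lay below that interval for Rag1 with Btg2 (3.21%, 2.02 to 4.82%, product 1.55%) and for Rag1 with Ltb (1.31%, 0.602 to 2.48%, product 0.521%).

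**Figure D2:**
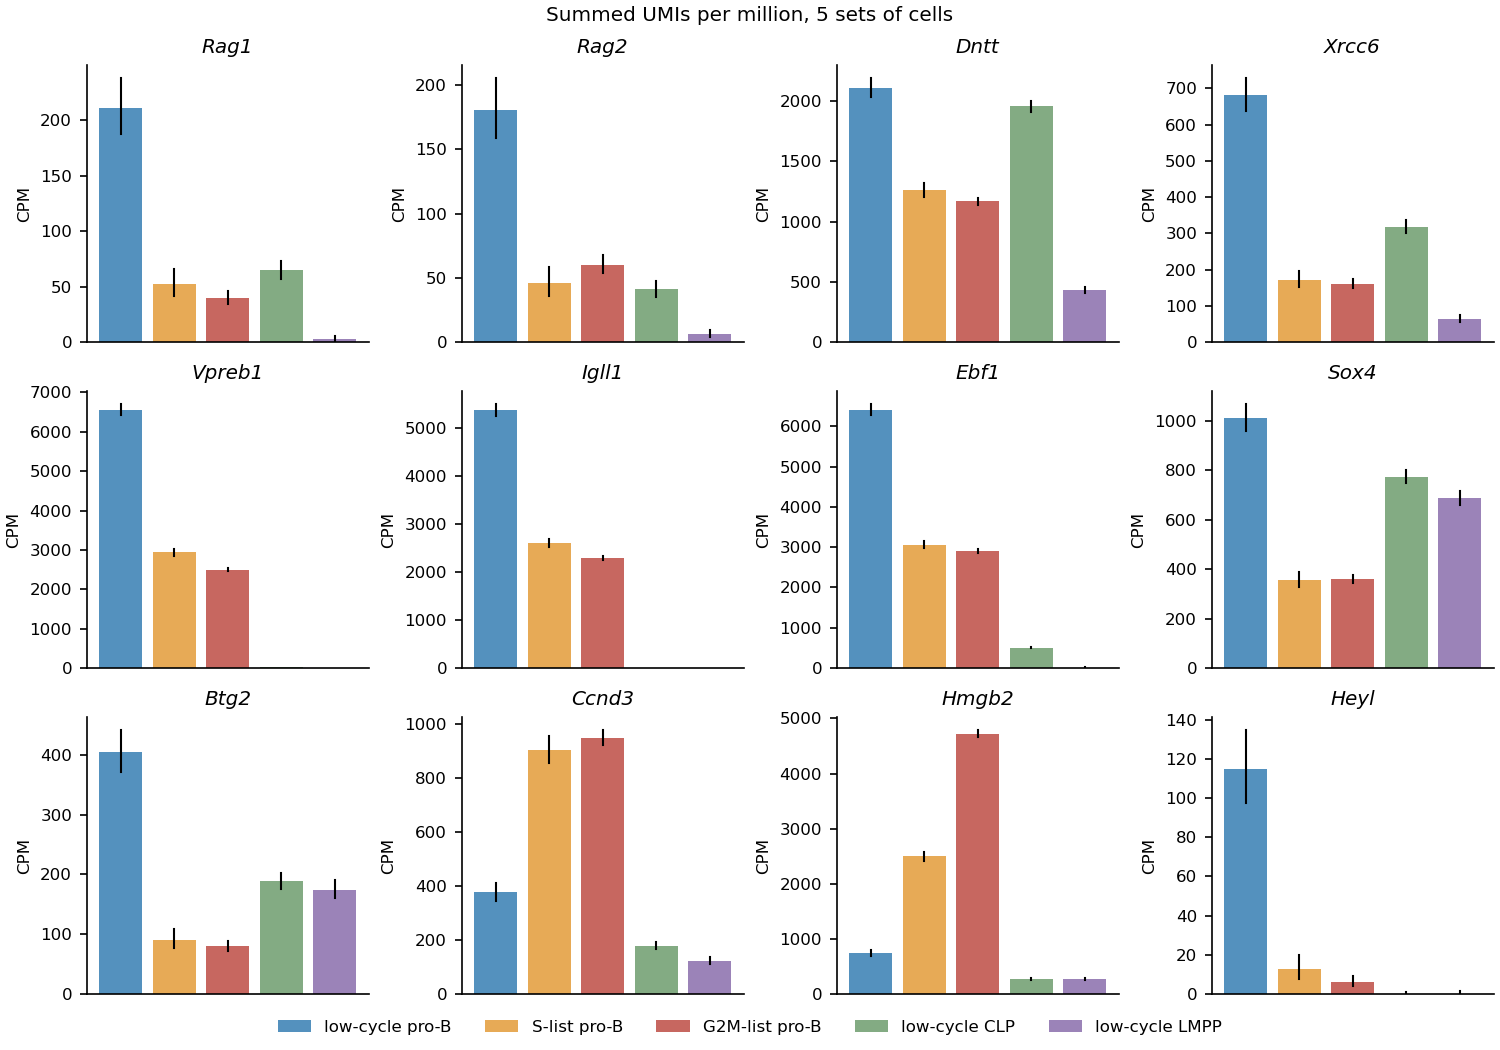
CPM of 12 genes in, from left to right, low-cycle pro-B, S-list pro-B, G2M-list pro-B, low-cycle CLP and low-cycle LMPP cells. Black lines are exact Poisson 95% intervals of the summed counts. Rag1 was 212 CPM in low-cycle pro-B cells, above the other 4 sets, while Ccnd3 and Hmgb2 were higher in S-list and G2M-list pro-B cells.

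Genes of the surrogate light chain, the pre-B receptor and its first signalling steps were higher as a group. Of 13 genes 11 were at least 1.5-fold higher and 0 lower, with a median log2 ratio of 0.96. In the depth window 5 of the 11 stayed past 1.5-fold, against 1775 of 3286 over all genes, and the median was 0.58. Vpreb1 stood at 6558 CPM in low-cycle cells and 2606 CPM in other pro-B cells, Vpreb2 at 759 and 207 CPM, and Igll1, the other part of the surrogate light chain, at 5372 and 2369.8 CPM. The window ratios (log2) were 0.92 for Vpreb1, 1.58 for Vpreb2 and 0.77 for Igll1. Vpreb1 and Vpreb2 are near-identical paralogs, so the way their transcripts were divided is uncertain.

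The signalling chains Cd79a (2916 CPM in low-cycle cells and 1617 CPM in other pro-B cells) and Cd79b (1528 and 692 CPM) were 1.80-fold and 2.21-fold higher, but their window ratios of 0.58 and 0.42 (log2) lie under 1.5-fold. The kinases Syk (104 and 53.3 CPM), Lyn (83.1 and 34.1 CPM) and Btk (88.4 and 48.6 CPM) were higher, with window ratios of 0.67, 0.57 and 0.62, of which that of Lyn lies under 1.5-fold, and the adaptor Blnk (831 and 527 CPM) was 1.58-fold higher with a window ratio of 0.20. The exceptions were the kinase Blk (17.4 and 18.4 CPM) and the phosphatase Ptpn6 (63.5 and 57.7 CPM). Per cell, none of the 13 was 1.5-fold higher, and Vpreb1 had 21.2 UMIs in low-cycle cells and 22.6 in other pro-B cells.

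The Igll1 promoter is shown as the example of this list, because E-boxes were found in 9 of the 10 promoters matched for 9 of its 13 genes, against 51.4% of all. It lies on chr16:16863936-16864235, minus strand. Capitals mark CANCTG at -158, -87 and -8 and, at -231, CCCNNGGG, letters that early B cell factor Ebf1 can bind, which occur in 13.7% of all promoters.
Igll1: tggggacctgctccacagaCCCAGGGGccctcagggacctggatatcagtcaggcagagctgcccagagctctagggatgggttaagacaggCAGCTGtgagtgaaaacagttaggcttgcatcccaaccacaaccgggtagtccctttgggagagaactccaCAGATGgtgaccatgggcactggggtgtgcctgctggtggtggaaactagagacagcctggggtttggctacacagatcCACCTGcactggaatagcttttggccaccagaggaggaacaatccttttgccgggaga
Only 1 of the 10 promoters of the list, that of Igll1, held CCCNNGGG.

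B lineage regulators divided. Of 22 transcription regulators 9 were at least 1.5-fold higher and 1 lower, with a median log2 ratio of 0.49, and 5 of the 9 stayed past 1.5-fold in the depth window, where the median was 0.12. Ebf1, which specifies the B lineage, stood at 6409 CPM in low-cycle cells and 2945 CPM in other pro-B cells (log2 1.12, 1.08 to 1.16), with a window ratio of 0.52. Sox4, needed for pro-B survival and growth, stood at 1011 and 359 CPM, Erg at 180 and 69.8 CPM, Foxo1, an activator of the Rag genes, at 151 and 69.8 CPM, and Spib, an Ets family factor, at 122 and 43.8 CPM. These 4 kept window ratios of 0.71, 0.75, 0.66 and 0.63 (log2). Lef1, a Wnt pathway factor of pro-B cells, (402 and 201 CPM) was higher and stood at 0.61 in the window. Ets1 (148 and 85.0 CPM) and Bach2 (107 and 70.8 CPM), which act in B cell development, were also past 1.5-fold, and their window ratios of 0.42 and 0.12 lie under 1.5-fold.

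Several other regulators of this list took a similar share in both sets. Pax5, which fixes B cell identity, stood at 119 CPM in low-cycle cells and 99.9 CPM in other pro-B cells (log2 0.26, -0.01 to 0.51). Tcf12 (43.8 and 43.0 CPM), Ikzf1 (91.4 and 88.5 CPM), Bcl11a (125 and 114 CPM) and Spi1 (44.6 and 46.8 CPM) also lay within 1.5-fold. Id3, an inhibitor of E proteins, stood at 230 and 272 CPM (log2 -0.24, -0.42 to -0.07), and Tcf3, the E2A gene, at 615 and 458 CPM. The member counted as lower, Ikzf3, rests on 1 UMI in low-cycle cells. Id2, an inhibitor of E proteins linked to innate lymphoid fates, stood at 18.1 and 3.64 CPM, which counts it among the 9, but its window ratio was -1.77. Of its 24 UMIs in low-cycle cells 5 remained without the 9 cells that carried 2 or more UMIs of other lineages.

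**Figure D3:**
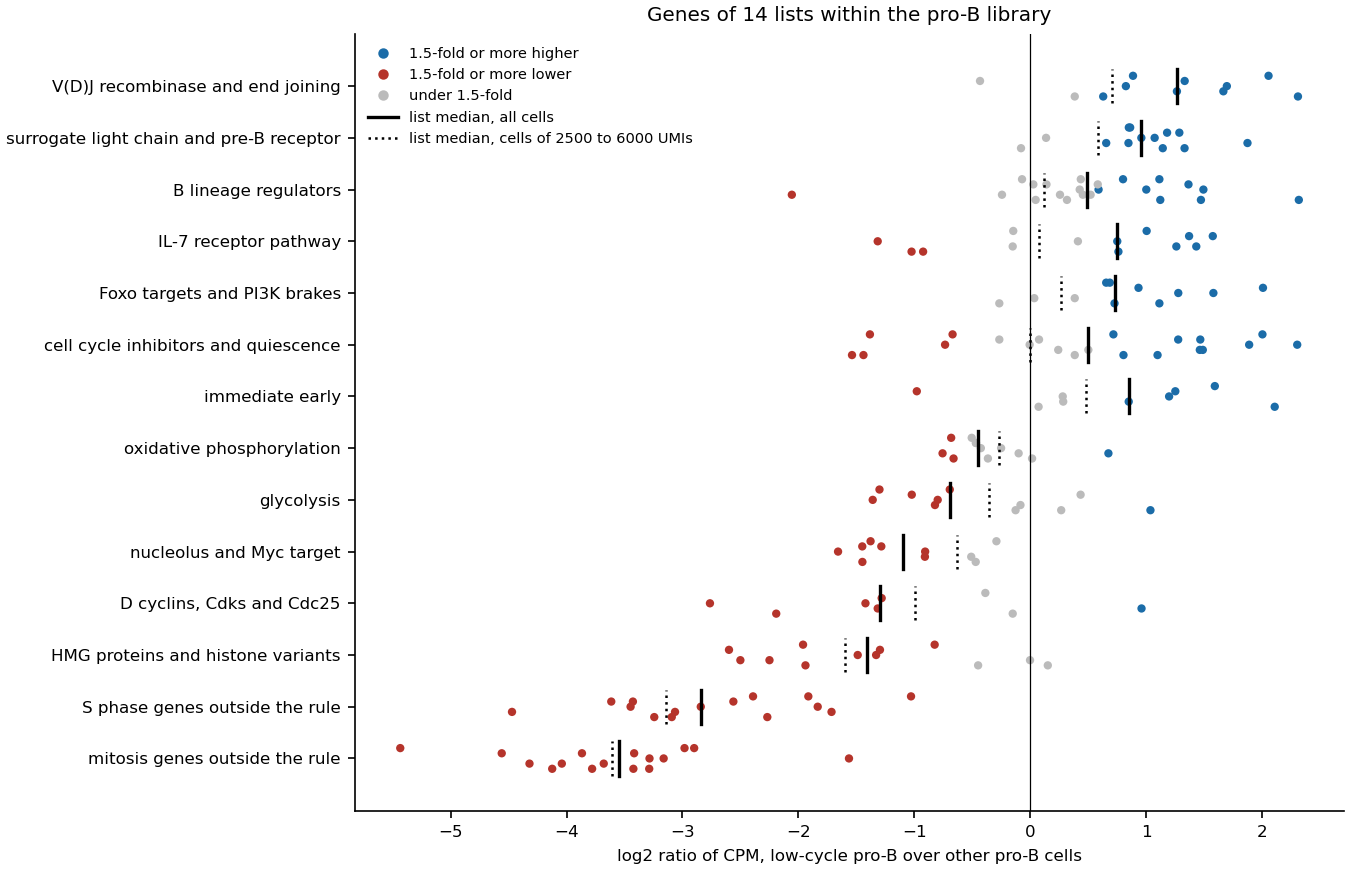
Each point is a gene of 1 of 14 lists with 10 or more UMIs, by its log2 ratio of CPM, low-cycle over other pro-B cells. Blue points are at least 1.5-fold higher, red points at least 1.5-fold lower and grey points less different. Solid black lines are list medians over all cells and dotted lines those in cells of 2500 to 6000 UMIs. All S phase and mitosis genes outside the rule lie on the lower side, and the medians of the B lineage lists move towards 0 at matched depth.

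Cycle genes that the rule did not use were low throughout. All 15 S phase genes outside the rule were at least 1.5-fold lower, with a median log2 ratio of -2.84, and all 16 mitosis genes, with a median of -3.55. All 31 stayed lower in the depth window, with medians of -3.14 and -3.61. Lig1, the replication ligase, stood at 21.9 CPM in low-cycle cells and 239 CPM in other pro-B cells, Rrm1, of ribonucleotide reductase, at 15.9 and 135 CPM, and the histone chaperone subunit Chaf1a at 3.02 and 67.0 CPM. E2f2 was the least different of the S phase list, with 43.1 and 87.9 CPM. Among mitosis genes Ccna2 (cyclin A) stood at 30.2 and 295 CPM, the spindle protein gene Nusap1 at 15.9 and 277 CPM, and Bub1b, a checkpoint kinase, at 19.6 and 58.1 CPM. Genes of these lists are transcribed together with those of the rule in dividing cells, so their level describes the rule and is no separate evidence.

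The 12 lowest ratios among genes with a common symbol belonged to the same machinery, some of them members of these lists and Chaf1a among them. Cep55, which acts in the final cut between daughter cells, had 1 UMI in low-cycle cells (0.756 CPM) and stood at 51.5 CPM in other pro-B cells. Ckap2l, Ska1, Kif11, Kif20a, Sgol1 and Hmmr, of the spindle, kinetochore and chromosome cohesion, stood at 1.51 to 3.78 CPM in low-cycle cells and 51.5 to 110 CPM in other pro-B cells. Esco2, a cohesin acetyltransferase, and Neil3, a DNA glycosylase, stood at 3.78 and 4.53 CPM in low-cycle cells. Hist1h2ap, a replication-dependent histone gene whose close copies can share its reads, stood at 400 CPM in low-cycle cells, 3612 CPM in S-list cells and 13578 CPM in G2M-list cells.

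Promoters of the mitosis list are shown because its members moved together and their promoters share letters. Of 16 promoters matched for 15 of the 16 genes, 13 held TTTGAA, the cell cycle homology region, and 14 held CCAAT, against 17.9% and 37.4% of 32851 promoters, both strands searched. Both motifs occurred in 13 of the 16, against 6.95% of all. Racgap1 (10.6 CPM in low-cycle cells and 145 CPM in other pro-B cells) and Prc1 (13.6 and 122 CPM), which build the central spindle, lie on chr15:99651607-99651906, minus strand, and chr7:80294201-80294500, plus strand, and capitals mark both motifs.
Racgap1: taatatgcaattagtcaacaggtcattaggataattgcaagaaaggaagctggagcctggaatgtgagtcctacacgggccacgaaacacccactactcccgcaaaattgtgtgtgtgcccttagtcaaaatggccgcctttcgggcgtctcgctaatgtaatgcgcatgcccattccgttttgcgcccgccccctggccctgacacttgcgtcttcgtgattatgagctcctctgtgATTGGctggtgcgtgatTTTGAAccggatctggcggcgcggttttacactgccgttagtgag
Prc1: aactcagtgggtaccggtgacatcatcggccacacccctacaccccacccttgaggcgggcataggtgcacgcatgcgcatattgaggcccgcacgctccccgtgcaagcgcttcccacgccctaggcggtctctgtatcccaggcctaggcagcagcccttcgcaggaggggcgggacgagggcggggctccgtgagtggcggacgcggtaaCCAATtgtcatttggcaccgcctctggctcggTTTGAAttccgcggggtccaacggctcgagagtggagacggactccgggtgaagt
TTTGAA begins at 5 in Racgap1 and at -5 in Prc1, and the other motif at -12 in Racgap1, where it is read on the opposite strand and printed as its reverse complement, and at -37 in Prc1. The matches describe the letters and do not show binding.

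Cyclin D, Cdk and Cdc25 genes, which drive entry into S phase and mitosis, divided. Of 8 measured genes 5 were lower and 1 higher, with a median log2 ratio of -1.30 and of -0.99 in the window. Ccnd3, a D cyclin gene, stood at 376 CPM in low-cycle cells, 904 CPM in S-list cells and 947 CPM in G2M-list cells. Its log2 ratio against all other pro-B cells was -1.32 (-1.45 to -1.18). Its partner Cdk4 stood at 205 and 498 CPM, and Cdk2 at 22.7 and 60.7 CPM. The other lower genes, Cdc25a and Cdc25c, had 7 and 4 UMIs in low-cycle cells. Ccnd2 (105 and 117 CPM) and Cdk6 (113 and 148 CPM) differed by less than 1.5-fold. The member that was higher was Cdc25b, a phosphatase that activates mitotic kinase, with 261 CPM in low-cycle cells, 70.2 CPM in S-list cells and 154 CPM in G2M-list cells.

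Cell cycle inhibitors went both ways. Of 21 genes linked to arrest or quiescence, 10 were at least 1.5-fold higher and 5 lower, with a median log2 ratio of 0.50 at all depths, and 5 of the 10 and 4 of the 5 stayed so in the window. There 5 of 20 genes were higher and 6 lower in all, and the median log2 ratio was -0.0012. Cdkn1b (p27), which restrains Cdk2, stood at 77.1 CPM in low-cycle cells and 28.0 CPM in other pro-B cells (log2 1.46, 1.09 to 1.83). Cdkn1a (p21) stood at 23.4 and 68.0 CPM, Cdkn2c (p18) at 51.4 and 134 CPM and Cdkn2d (p19) at 91.4 and 248 CPM, all lower. The antiproliferative genes Btg2 (406 and 82.2 CPM) and Btg1 (595 and 212 CPM), the translation inhibitor Pdcd4 (104 and 28.0 CPM), the glucose uptake inhibitor Txnip (125 and 31.1 CPM) and Tsc22d3 (295 and 107 CPM) were higher. In the depth window Btg2 (log2 1.25), Pdcd4 (1.30), Txnip (0.93), Cdkn1b (0.91) and Tsc22d3 (0.59) kept their calls, while Btg1 (0.30) did not. Klf2, often linked to quiescence, stood at 73.3 and 88.2 CPM, within 1.5-fold, but its window ratio was -1.03 (-1.51 to -0.57), and that of Klf6 was -0.78, against 0.72 at all depths.

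Brakes on PI3 kinase signalling and Foxo targets were higher by CPM at all depths, with 8 of 11 measured genes at least 1.5-fold higher and 0 lower. In the window 3 of 11 genes were higher and 2 lower, with a median log2 ratio of 0.26. Of the 8, only 3 stayed higher there. These were Foxo1, Pik3ip1, which inhibits PI3 kinase (228 CPM in low-cycle cells and 56.8 CPM in other pro-B cells, log2 2.01 and 1.43 in the window), and Sesn1, a stress-induced inhibitor of mTORC1 (109 and 36.4 CPM, log2 1.58 and 0.76 in the window). Inpp5d, a phosphatase that acts on the product of PI3 kinase, stood at 223 CPM in low-cycle cells and 135 CPM in other pro-B cells, with a window ratio of 0.26.

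The IL-7 receptor pathway was mixed. Of 13 measured genes 7 were at least 1.5-fold higher and 3 lower, and in the window, where the median log2 ratio was 0.08, 2 of the 7 stayed higher and 2 of the 3 lower. The 2 that stayed higher were the receptor-associated kinase gene Jak3 (log2 1.37 and 1.14 in the window) and Cish (1.57 and 1.36), a feedback inhibitor, named here after their values were seen. Those that stayed lower were Ccnd3 and Stat5b (-1.02 and -0.86). In the window Jak3 rested on 18 UMIs in low-cycle cells and 6 in other pro-B cells, and Stat5b on 6 and 8. Their window intervals (-0.26 to 2.76 for Jak3, -2.67 to 0.85 for Stat5b) included 0. Il7r itself, the receptor chain that defined the gate, stood at 156 CPM in low-cycle cells and 92.3 CPM in other pro-B cells, with a window ratio of 0.19. The survival kinase gene Pim1, a Stat5 target, stood at 215 and 107 CPM and at 0.08 in the window. Myc, a driver of growth, stood at 13.6 and 25.8 CPM, and its log2 ratio was -0.92 and -0.26 in the window.

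Genes of chromatin packing were lower, and part of the cytoskeletal genes. Of 12 HMG and histone variant genes 9 were at least 1.5-fold lower and 0 higher, and all 9 stayed so in the window. Hmgb2, a DNA-bending protein gene, stood at 741 CPM in low-cycle cells, 2501 CPM in S-list cells and 4724 CPM in G2M-list cells. Hmgb1 stood at 1208, 3450.4 and 4998 CPM, and the histone variant gene H2afz at 973, 3537 and 4964 CPM in the same order. The replication-independent histone genes H3f3a (3966 CPM in low-cycle cells and 3570.4 CPM in other pro-B cells) and H3f3b (2819 and 2822 CPM) differed little. Tuba1b, an alpha-tubulin, stood at 186 and 2207 CPM, and Stmn1, which destabilises microtubules, at 430.0 and 2439.8 CPM, whereas Actb (1668 and 1776 CPM) and Tmsb4x (4052 and 3151 CPM) lay within 1.5-fold. Of the 10 genes of actin, thymosin and tubulin 5 were lower and 0 higher, at all depths and in the window.

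Nucleolar genes were lower by CPM, and part of the glycolysis genes at unmatched depth only. Of 10 nucleolar genes and Myc targets 7 were lower and 0 higher, and 5 of the 7 stayed so in the window. Nhp2, of the small nucleolar particles, stood at 86.9 CPM in low-cycle cells and 237 CPM in other pro-B cells, and Ncl (nucleolin) at 344 and 645 CPM with a window ratio of -0.31. Of 11 glycolysis genes 6 were lower, among them Gapdh (652 and 1324 CPM) and Ldha (188 and 483 CPM), and none of the 6 stayed past 1.5-fold in the window. Aldoa, the aldolase gene, was the member that was higher (181 and 88.0 CPM). Of 12 oxidative phosphorylation genes 3 were lower and 1 higher, a share of lower genes near that of all genes, and 1 of the 3 stayed lower in the window. The chaperone gene Hsp90aa1 stood at 246 and 835 CPM (log2 -1.76, and -1.36 in the window).

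The 12 highest ratios, among genes with a common symbol, belonged to genes outside the lists. Heyl, a repressor of the Hairy family that acts downstream of Notch, stood at 115 CPM in low-cycle cells (97.3 to 135), 12.5 CPM in S-list cells and 6.30 CPM in G2M-list cells. Selm, a selenoprotein of the endoplasmic reticulum, stood at 410.4, 65.4 and 43.4 CPM, and Ltb, the lymphotoxin beta gene, at 279.6, 47.3 and 19.3 CPM. Steap4, a metalloreductase, stood at 51.4, 4.17 and 2.61 CPM, Kdm5b, a histone demethylase, at 63.5, 5.56 and 3.91 CPM, and Fcrl6, an Fc receptor-like protein, at 87.7, 13.9 and 6.30 CPM. The others were Speer2, Tcp11l2, Prodh, Adamts7, Mroh2a and Parvb, at 57.4 to 84.6 CPM in low-cycle cells and 3.97 to 7.28 CPM in other pro-B cells. In the depth window these 12 genes had log2 ratios between 1.79 (Ltb) and 3.01 (Fcrl6), so all 12 stayed past 1.5-fold.

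The 12 genes were also higher per cell. Heyl had 0.371 UMIs per low-cycle cell and 0.0675 per other pro-B cell, Selm 1.32 and 0.422, and Ltb 0.902 and 0.226. Over all 3071 tested genes, 58 were at least 1.5-fold higher in UMIs per cell (1.89%) and 2540 lower (82.7%), with a median log2 ratio of -1.34. All 58 were past 1.5-fold in the depth window too. Their log2 ratios of CPM at all depths were 2.018 or more, and the window holds part of the same cells, so this is no separate support. Rag1, Btg2 and Xrcc6 were among the 58. At 2000 UMIs per cell, Heyl was detected in 21.4% of low-cycle cells (17.4 to 25.8%) and 2.19% of other pro-B cells (1.23 to 3.58%), and Selm in 43.8% and 10.2%. In low-cycle CLP cells Heyl was found in 0 of 672 thinned cells and Selm in 0.595%.

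**Figure D4:**
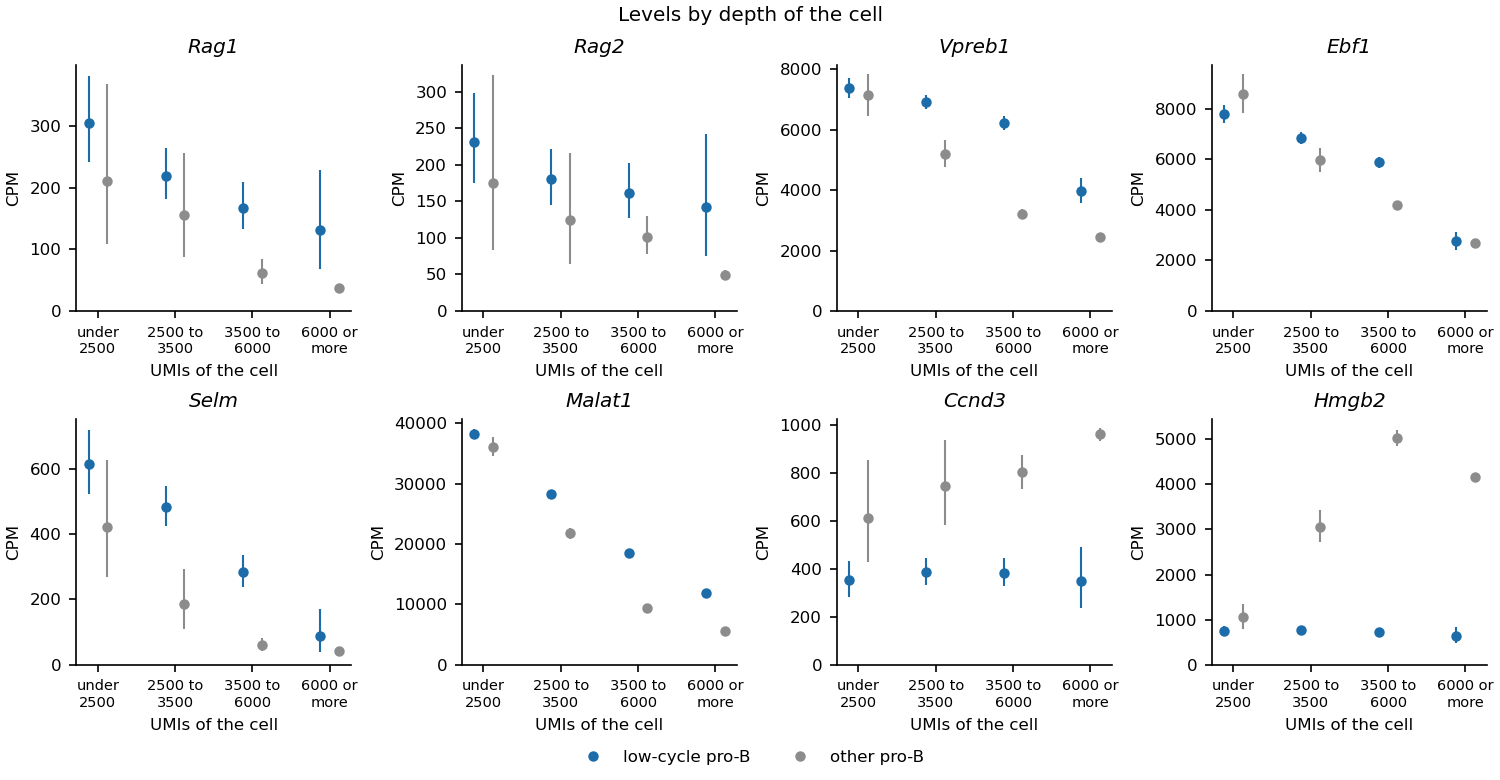
CPM of 8 genes in pro-B cells grouped by the UMIs of the cell, with low-cycle cells in blue to the left of other pro-B cells in grey and exact Poisson 95% intervals. Ebf1, Vpreb1 and Malat1 decline with depth in both sets, while Ccnd3 and Hmgb2 stay low in low-cycle cells at each depth. The bins under 2500 and from 2500 to 3500 UMIs hold only 27 and 33 other pro-B cells.

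Levels by depth show where the sets met, but the shallow other pro-B cells also held less Hmgb2 and H2afz than deeper ones. Under 2500 UMIs Hmgb2 stood at 739 CPM in low-cycle and 1052 CPM in other pro-B cells, and H2afz at 826 and 789 CPM. Between 3500 and 6000 UMIs the other pro-B cells held 5028 CPM of Hmgb2 and 4856 CPM of H2afz. Depth and the level of such transcripts cannot be told apart here. Among cells under 2500 UMIs (117 low-cycle and 27 other pro-B cells), Rag1 stood at 305 CPM (241 to 381) and 210 CPM, Ebf1 at 7794 and 8590 CPM, and Vpreb1 at 7375 and 7135 CPM, and the 95% interval of Rag1 in the 27 cells (109 to 368 CPM) holds the value of the low-cycle cells. Between 3500 and 6000 UMIs (109 and 123 cells), Rag1 stood at 168 and 61.5 CPM, Vpreb1 at 6223 and 3217 CPM, and Ebf1 at 5893 and 4203 CPM. The long noncoding RNA Malat1, which stays in the nucleus, stood at 38285 and 36131 CPM under 2500 UMIs, and at 18511 and 9431 CPM between 3500 and 6000 UMIs. Ccnd3 went the other way, with 352 and 614 CPM in the shallowest cells and 384 and 802 CPM between 3500 and 6000 UMIs.

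Within the low-cycle cells the variation of most genes could not be told from counting error at this depth. At 2000 UMIs the median ratio of variance to mean was 1.01 over 4497 genes with a mean of 0.05 UMIs or more. At low means the ratio lies near 1 even where cells differ, so it does not show that the cells were alike. Malat1 was far above, at 16.2, with up to 177 UMIs in a thinned cell and a mean of 54.4. Lmo4, a LIM domain factor, had a ratio of 6.06, but 51.5% of its 97 UMIs lay in 5 cells. Crip1, a small LIM protein (3.16), the interferon-inducible Ifi27l2a (3.14), the chromatin protein Hmgn2 (2.56) and Ebf1 (2.38) followed, and Ebf1 was spread over cells, with 2.65% of its 8480 UMIs in 5 cells. Rgs10, Speer2, Serpinb1a and Crip2 made up the 10 highest, with 21.0 to 34.8% of their UMIs in 5 cells.

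Levels were also read along the summed S and G2M value, which is made of the values the rule used. In cells with a sum of 0 to 5 (68 cells), 5 to 10 (123 cells) and 10 to 15 (131 cells), Rag1 stood at 209, 272 and 176 CPM and Vpreb1 at 6455, 6771 and 6579.6 CPM. The interval of Rag1 between sums of 5 and 10 (223 to 328 CPM) did not overlap that between 10 and 15 (139 to 220 CPM). Heyl stood at 173, 148 and 73.2 CPM and Ltb at 388, 341 and 217 CPM in the same bins. These genes are examples from a larger set binned in the same way. Cells are not replicates, and whether levels varied within the low-cycle range was not tested. Between sums of 15 and 30 (139 cells, 88 of them low-cycle) Rag1 stood at 169 CPM, and between 30 and 60 (142 cells, none low-cycle) at 50.1 CPM. Median depth was 2671, 3064, 2921, 3047 and 8896 UMIs in these 5 bins, so level and depth changed at the same place.

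The comparison with low-cycle CLP asks how the pro-B cells differ from an earlier progenitor held to the same rule. Among 3044 genes that reached 50 CPM in a group, low-cycle pro-B cells had 193 higher by 4-fold or more (6.34%) and 107 lower by as much (3.52%), with a median log2 ratio of 0.39. This split of calls, 64.3% higher, became 52.0% when ribosomal and mitochondrial genes were left out of the total and 50.7% with median-of-ratios scaling, which shifted every log2 ratio by -0.34 and -0.39. Ribosomal protein genes took a median of 28.1% of UMIs in low-cycle pro-B cells, 42.7% in low-cycle CLP and 43.6% in low-cycle LMPP. Among the 10887 genes with 10 or more UMIs, used for the lists, 4.60% were higher by 4-fold and 6.08% lower.

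Genes of the pre-B receptor were among those furthest above low-cycle CLP. Of 13 genes of that list 8 were at least 4-fold higher and 0 lower, with a median log2 ratio of 3.42. Igll1 was 850-fold higher (5372 CPM in low-cycle pro-B, 6.32 CPM in low-cycle CLP and no UMI in low-cycle LMPP cells), Vpreb1 203-fold (32.3 CPM in CLP) and Vpreb3 80.2-fold (72.4 CPM in CLP). Cd79a was 27.5-fold higher. Of 22 B lineage regulators 8 were at least 4-fold higher and 1 lower, led by Lef1 (207-fold, 1.94 CPM in CLP), Id3 (86.0-fold), Spib (45.5-fold) and Pou2af1, a coactivator of Oct factors (33.8-fold), with Ebf1 at 12.6-fold and Pax5 at 6.47-fold. The recombinase genes differed less. Rag1 was 3.26-fold higher (212 and 64.9 CPM), Rag2 4.40-fold (181 and 41.1 CPM), and Dntt stood at 2107 and 1954 CPM (log2 0.11, 0.05 to 0.17). Lig4 was 51.6-fold higher, from 5 UMIs in CLP. In cells of 2500 to 6000 UMIs of both populations 192 genes were higher and 141 lower, and the log2 ratios were 8.91 for Igll1, 3.38 for Ebf1, 4.36 for Spib, 2.04 for Pax5, 1.10 for Rag1 and 1.78 for Rag2, which puts Rag2 under 4-fold.

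High ratios were also found for Slamf7, a receptor of the SLAM family (193 CPM in low-cycle pro-B cells, 1 UMI in CLP, ratio 793, log2 9.63, 7.14 to 14.94), Cplx2, a regulator of vesicle fusion (326 CPM, 2 UMIs in CLP, log2 9.39, 7.53 to 12.44), and Cdc25b (261 CPM, 3 UMIs in CLP, log2 8.48, 6.92 to 10.77). Smtnl2 (235 CPM) and Pcp4l1 (131 CPM) had no UMI in CLP. Set against 3 UMIs there, Smtnl2 was at least 322-fold and Pcp4l1 at least 179-fold higher, although Pcp4l1 stood at 27.6 CPM in low-cycle LMPP cells. Heyl and Steap4, which led the comparison within pro-B cells, had no UMI in CLP or LMPP low-cycle cells, while Kdm5b stood at 63.5 CPM in low-cycle pro-B, 54.9 CPM in CLP and 50.8 CPM in LMPP cells. In G2M-list and S-list pro-B cells Kdm5b stood at 3.91 and 5.56 CPM, below both progenitors.

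**Figure D5:**
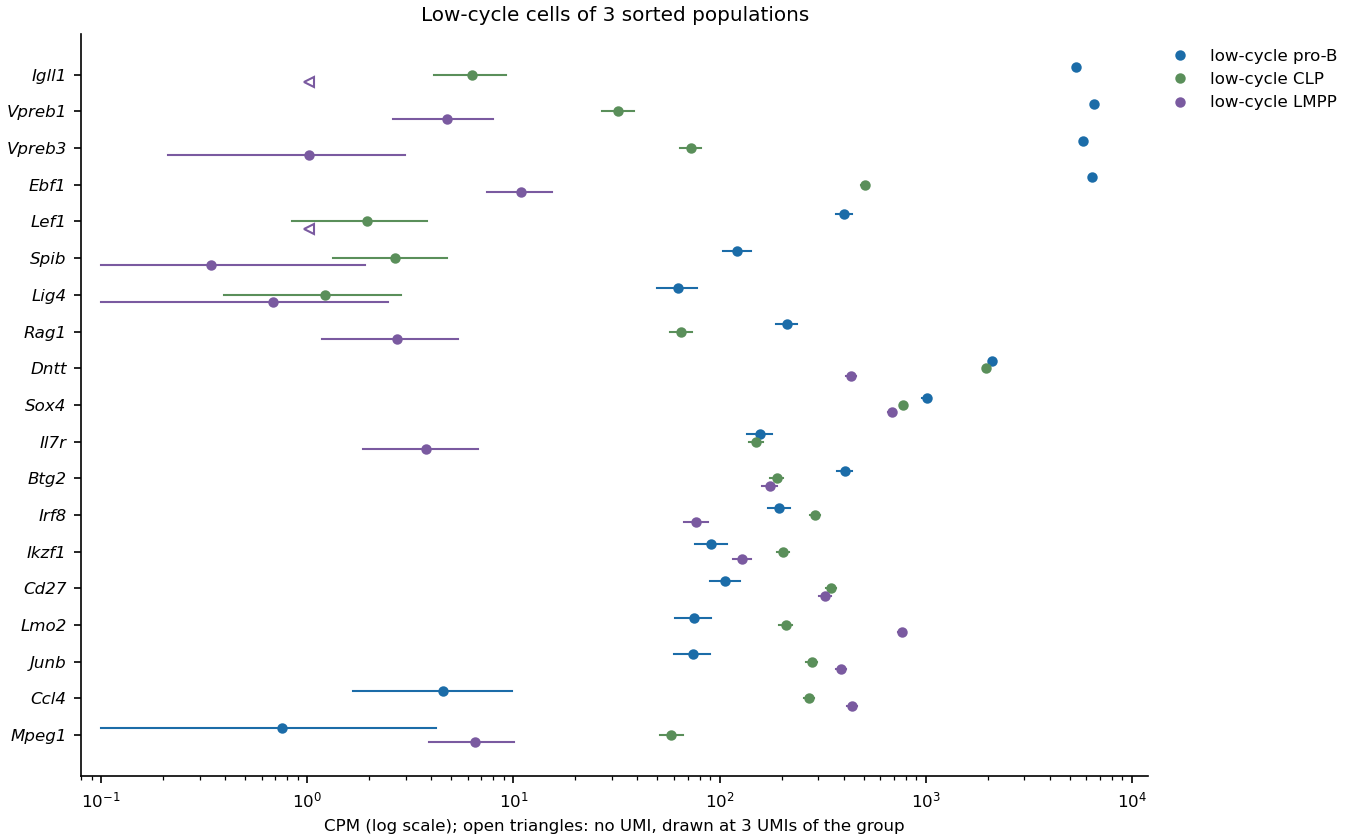
CPM of 19 genes on a log axis in low-cycle pro-B, CLP and LMPP cells, with exact Poisson 95% intervals drawn from 0.1 CPM upward. Open triangles mark genes with no UMI, drawn at 3 UMIs of the group. Igll1 (5372 CPM) and Vpreb1 (6558 CPM) lie far to the right of CLP (6.32 and 32.3 CPM), Dntt and Il7r lie close together in pro-B and CLP cells, and Cd27, Lmo2, Junb and Ccl4 lie lower in pro-B cells.

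Part of the genes of earlier progenitors were lower. By 4-fold or more, 6 of 13 were lower and 0 higher, with a median log2 ratio of -1.82, genes at 0 set to 3 UMIs. Cd34 had no UMI in low-cycle pro-B cells and 204 CPM in CLP, at least 90.1-fold lower. Ly6d, a marker of B-biased CLP, stood at 90.7 CPM in low-cycle pro-B cells and 576 CPM in CLP, Notch1 at 12.1 and 160.1 CPM, while the receptor gene Cd27 (107 and 348 CPM) lay within 4-fold. Within the pro-B library, 6 of the 10 measured genes of this list were at least 1.5-fold higher in low-cycle cells and 2 lower, and 5 of the 6 and 1 of the 2 stayed so in the window. Ly6d stood at 90.7 CPM in low-cycle cells and 127 CPM in other pro-B cells there (log2 -0.48, and -1.47 in the window, -1.87 to -1.09). Cd27 was 4.67-fold higher in low-cycle cells (22.8 CPM in other pro-B cells). Satb1, a chromatin organiser (91.4 and 37.9 CPM), and Lmo2, a progenitor factor (74.8 and 30.3 CPM), were also past 1.5-fold there, and the window ratios of the 3 genes were 1.54, 1.10 and 0.63 (log2). Flt3, whose protein the gate excluded, stood at 3.02 CPM in low-cycle cells (4 UMIs) and 5.63 CPM in other pro-B cells. Of 9 immediate early genes, which respond fast to stimulation, 4 were at least 4-fold lower than in CLP and 0 higher, among them Fos (21.9 and 207 CPM), while Junb (74.1 and 280 CPM) lay within 4-fold, though past it at matched depth (log2 -2.43).

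Other genes with the lowest ratios were Cox6a2 (2.27 CPM in low-cycle pro-B cells and 372 CPM in CLP), a gene of plasmacytoid dendritic cells, Ccl4 (4.53 and 271 CPM), a chemokine, Fcer1g (2.27 and 111 CPM), an Fc receptor chain, Nr4a1 (1.51 and 72.4 CPM), and Mpeg1, Runx2 and Dyrk4, each with 1 UMI in low-cycle pro-B cells. Of the 704 low-cycle CLP cells 529 had 2 or more UMIs of T, innate, myeloid, dendritic or erythroid markers other than Lyz2, Tcf4 and Bst2, against 9 of the 410 low-cycle pro-B cells. With those cells left out, which was decided with the values known, 175 CLP cells remained. Cox6a2 is itself one of the markers counted, so a lower level of it there was fixed by that choice. It stood at 71.8 CPM in those CLP cells, with a log2 ratio of -5.53, against -7.36 with all cells. The ratio of Igll1 was then 231-fold (17 UMIs in CLP), that of Vpreb1 123-fold, Lef1 73.1-fold, Spib 22.3-fold, Lig4 15.4-fold, Pou2af1 14.1-fold and Ebf1 7.05-fold. Rag1 was 1.79-fold higher, and Pax5 (2.64-fold) and Rag2 (3.89-fold) were no longer past 4-fold. The survival gene Bcl2 was 20.0-fold lower in low-cycle pro-B than in low-cycle CLP cells (9.07 and 181 CPM), while its relative Bcl2l1 was 4.74-fold higher (46.1 and 9.72 CPM). In cells of 2500 to 6000 UMIs the log2 ratio of Bcl2 was -6.15, with 3 UMIs in low-cycle pro-B cells, and that of Bcl2l1 was 3.12. Both were named after their values were seen.

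The lists of cycle genes outside the rule were also set against low-cycle CLP. Of 12 measured mitosis genes outside the rule 8 were at least 4-fold higher and 1 lower, with a median log2 ratio of 2.33, while the S phase list had 2 of 15 higher and 0 lower, with a median of 0.39. Ccna2 stood at 30.2 CPM in low-cycle pro-B cells, 1.70 CPM in CLP and 0.341 CPM in LMPP cells. The other pro-B cells of the same library held 295 CPM of Ccna2. These genes are transcribed together with those the rule used, so the values describe what the same limits left in each library. Hbb-bs, a globin gene that pro-B cells should not make, stood at 18.9 CPM in low-cycle cells, 17.0 CPM in other pro-B cells and 0.729 CPM in low-cycle CLP cells, and the part of free RNA in the mitotic transcripts was not tested.

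Markers of other cells were few. Of 11 myeloid genes only Lyz2 had UMIs in low-cycle pro-B cells (144 CPM), and the list summed to 144 CPM in low-cycle cells and 69.7 CPM in other pro-B cells, with Mpo, Elane and Prtn3 at 0 in the low-cycle cells. The 10 T and innate genes summed to 28.0 and 9.60 CPM, from 37 UMIs in low-cycle cells, 9 of them in 1 cell, with Cd3e and Gzma at 0. The 5 plasmacytoid dendritic genes summed to 319 and 186 CPM, nearly all Tcf4 and Bst2, which B lineage cells also express, and Siglech was at 0. The 14 genes of later B cell stages summed to 993 and 503 CPM, most of it Cd37 (843 and 317 CPM). Of the 10 with 10 or more UMIs 3 were at least 1.5-fold higher and 5 lower, with a median log2 ratio of -0.44. In the window 5 of the genes reached 10 UMIs, and the 3 higher and 2 of the 5 lower genes stayed so. H2-Ab1, a class II gene, stood at 80.9 CPM in low-cycle cells and 133 CPM in other pro-B cells (window log2 -0.89), and Cxcr4, a chemokine receptor gene, at 19.6 and 31.1 CPM (window log2 -1.74). Cd2 was at 0, Il2ra and Ms4a1 at 1 UMI each and the class II genes H2-Aa and H2-Eb1 at 3.78 and 2.27 CPM in low-cycle cells. Cd74, the invariant chain, stood at 27.2 and 2.65 CPM and was found in 3.39% of thinned low-cycle cells. Without the 9 low-cycle and 41 other pro-B cells with 2 or more lineage UMIs, 781 genes were higher and 624 lower. Of 9 interferon-stimulated genes 5 were at least 1.5-fold higher in low-cycle cells than in other pro-B cells and 0 lower, among them Irf7 (23.4 and 5.96 CPM), and 3 of the 5 stayed so in the window. In low-cycle cells erythroid genes summed to 34.0 CPM, against 28.3 CPM in other pro-B cells, and plasma cell genes to 84.6 and 53.6 CPM.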

How the data were processed

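The authors deposited raw UMI counts per gene and barcode for 27998 genes, and the submitters' processing notes name Cell Ranger and mm10, with the version and cell calling not given in the sources used here. Counts of 1 library per population (pro-B, CLP and LMPP, 1106, 948 and 579 kept cells of 1123, 979 and 599 barcodes) were summed over cells and scaled to CPM. Genes counted as different at 1.5-fold within pro-B cells and 4-fold against CLP, with 50 CPM or more in the higher group. A group without UMIs was set to 3 UMIs. Intervals are exact Poisson, conditional or Clopper-Pearson and cover counting error only. Cells were thinned without replacement to 2000 UMIs for shares and variances, which left out 26 low-cycle and 10 other pro-B cells. With 1 library per population, no p-values are given. The members, 29 gene lists and limits were chosen with earlier results of these data known. Named genes are the 12 highest and 12 lowest ratios within pro-B (8 and 8 against CLP), the 10 highest variances, 6 whole lists and up to 5 genes of every other list by level, 229 in all, of which some are not reported here. Further genes were named after their values were seen, among them Jak3, Cish, Stat5b, Rrm1, Racgap1, Prc1, Myc, Tuba1b, Stmn1, Aldoa, Notch1, Fos and Flt3. Symbols carried by 2 identifiers were kept apart. Promoter sequences are from RefSeq on GRCm38.p6. The steps were tested on simulated counts. The tools were scanpy 1.11.5 (scrublet), matplotlib 3.10.9, pandas 2.3.3, SciPy 1.17.1, NumPy 2.4.6 and Python 3.11.15.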

Additional observations from a re-analysis of the deposited data

How the results depend on the processing

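The share of low-cycle pro-B cells was 27.0% with limits of 10, 40.9% with limits of 20, 30.3% with values from cells thinned to 2000 UMIs, and 46.2% without cells carrying 2 or more UMIs of other lineages, which removes many cells through Tcf4 and Bst2. Within pro-B cells the genes higher were 464 in cells of 2500 to 6000 UMIs, 1398 at 25 CPM, 379 at 100 CPM and 405 at 2-fold, and the genes lower 371 at 100 CPM and 346 at 2-fold. Against CLP the genes lower were 206 at 25 CPM, those higher and lower 117 and 54 at 100 CPM, and 640 and 264 at 2-fold. Medians of 4 marker lists changed sign where the main median was 1.5-fold or more. For plasma cells within pro-B the log2 median was 0.51 in the depth window and 0.94 with members of 1 or more UMIs. Against CLP it was 0.41 for plasma cells and 0.34 for T and innate cells with 1 or more UMIs, and 1.82 for myeloid cells without lineage-marked cells. That filter counted the myeloid markers other than Lyz2, so the myeloid median was shaped by the choice of cells and is no separate result. For later B stages it was 0.996 without lineage-marked cells, 1.29 with Tcf4 and Bst2 not counted, 1.54 with 1 or more UMIs and 0.16 with 50 or more. These lists rest on few genes and UMIs. With members of 1 or more UMIs, a gene at 0 in low-cycle cells was set to 3 UMIs and could count as higher. Only 2 of the 4 plasma cell genes had a UMI in low-cycle pro-B cells. Jchain and Prdm1 had none there, yet their log2 ratios against CLP were 1.22 and 0.41. So that median does not show plasma cell genes higher in pro-B cells. For the other sign changes the cause was not tested. No paired analysis was possible because each population is 1 library with no replicate number. Over the genes and lists, 5771 of the other values moved little (within their interval, or under 1.5-fold for list medians) and 907 moved more. The last 9 are the list medians given above. Sign changes were counted only for called genes and for lists with a main median of 1.5-fold or more. Others, such as that of Klf6 in the depth window, are not among the 9. Depth limits genes under the floor of 3 UMIs, 2.27 CPM in low-cycle cells.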
